A study of Mus musculus with 6 samples.

Results

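The 36 mitosis and spindle genes described here were taken by gene name from the 54146 genes of the deposited table, and each was found in it once. Expression was measured by RNAseq in 6 libraries of D2A1, a mouse mammary tumor cell line, grown as spheroids in Matrigel with serum-containing DMEM. In 3 libraries the spheroids had received recombinant SLURP1 (rSLURP1), a secreted Ly6/uPAR-related protein, and in 3 they had received recombinant GST (rGST) as the control protein. Per the labels both proteins were given at 50 nM, and all spheroids were harvested after the same time in culture. The model is 1 cell line in culture with no host cells added, and nothing in the labels says whether the 3 libraries of a group came from separate cultures, so p-values measure the spread between these libraries. The comparison asks how rSLURP1 altered the transcripts of cell division in spheroids. Values are TPM, transcript levels corrected for transcript length and scaled to the same total in every library.

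Mitosis is driven by CDK1 bound to cyclin A or B, which the phosphatase CDC25C and the kinase PLK1 switch on. Spindle microtubules attach to chromosomes at kinetochores, the spindle checkpoint holds the cell until all are attached, and the anaphase-promoting complex (APC/C) with CDC20 then destroys securin and cyclin B. Most of these genes are transcribed late in the cycle through a promoter element called the cell cycle genes homology region (CHR) together with CCAAT boxes, so in bulk RNA fewer dividing cells and less transcript per dividing cell cannot be told apart.

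All 36 genes reached 1 TPM in 3 or more libraries, the filter that left 12301 genes to test. As deposited, 16 of the 36 were lower with rSLURP1 and 1, Ube2c, was higher (limma, Benjamini-Hochberg adjusted p of at most 0.05). Over all tested genes, 58.5% were called lower and 8.66% higher, so the members' share called lower (44.4%) did not exceed that of the table. Their median log2 fold change was -0.30 (quartiles -0.38 and -0.09), beside -0.33 (quartiles -0.58 and -0.07) over all tested genes. No member was called with a change of at least 2-fold, a criterion that 8.22% of tested genes met.

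The direction of most members depended on how the libraries were scaled. Since the median gene lay at -0.33, each library was also divided by the median ratio of its genes (factors of 1.131 to 1.135 with rGST and 0.873 to 0.910 with rSLURP1), which puts the median gene at 0. With this scaling 1 member, Mki67, was lower and 9 were higher, where 25.2% of tested genes were lower and 26.0% higher, and the members' median was 0.04. Mki67 was therefore the 1 member called lower, and Ube2c the 1 called higher, in both scalings. The other 8 members higher with median-ratio scaling were Ccnb1, Aurka, Tpx2, Cenpa, Ndc80, Ttk, Birc5 and Ect2, and none of these 8 was called in either direction as deposited. No member went from lower as deposited to higher with median-ratio scaling, which 2.93% of tested genes did. Ndc80, Ect2, Tpx2 and Ube2c were called higher with median-ratio scaling whichever library was left out. The number called higher was 5 without rGST replicate 1, rGST replicate 3 or rSLURP1 replicate 1, beside 22.85%, 24.19% and 23.47% of tested genes. Ccnb1, Aurka, Birc5, Ttk and Cenpa each lost the call without at least 1 library.

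**Figure D1:**
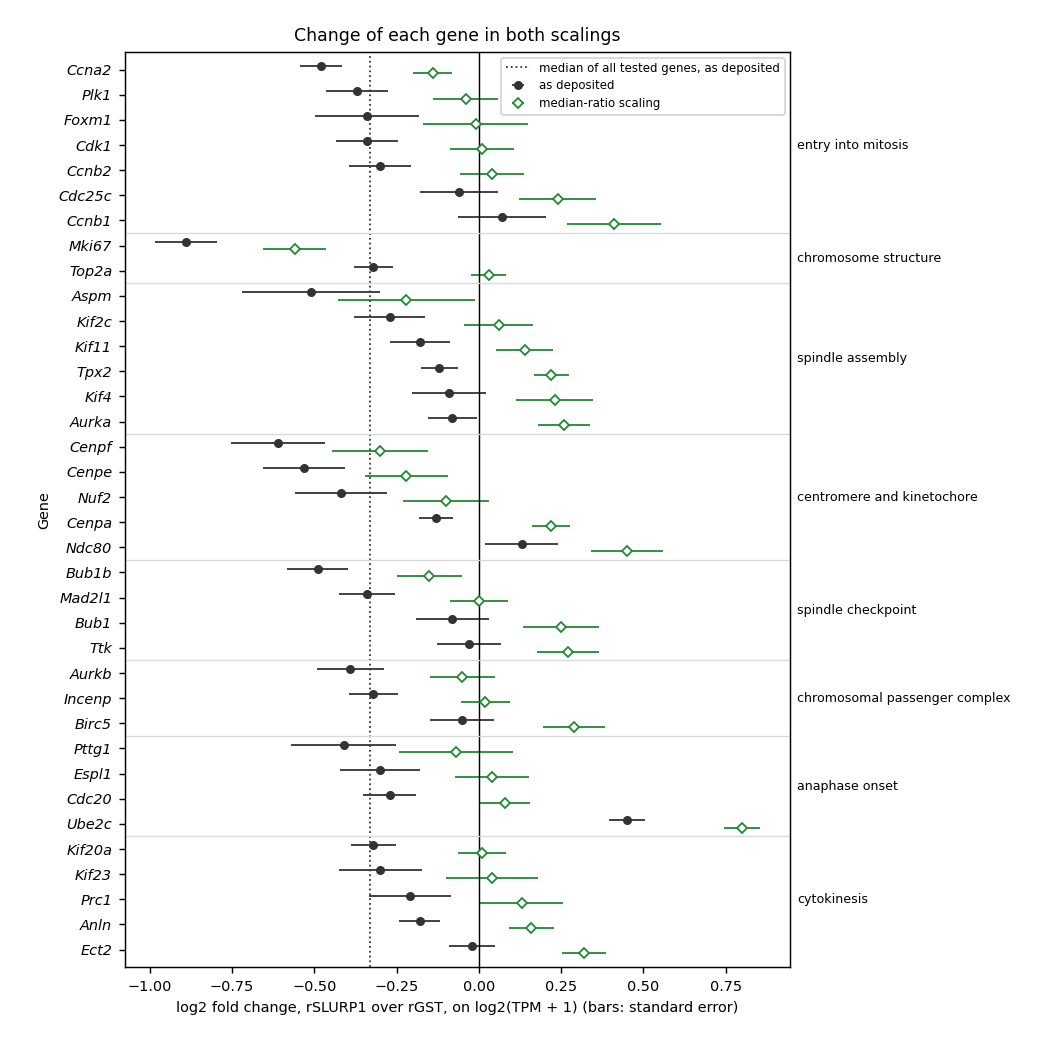
Log2 fold change of each of the 36 genes on log2(TPM + 1), rSLURP1 over rGST, with its standard error (3 libraries against 3), as deposited (filled circles) and with median-ratio scaling (open diamonds), grouped by role. As deposited the genes spread from -0.89 (Mki67) to 0.45 (Ube2c) around the dotted median of all tested genes at -0.33, and with median-ratio scaling most lie close to 0.

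**Figure D2:**
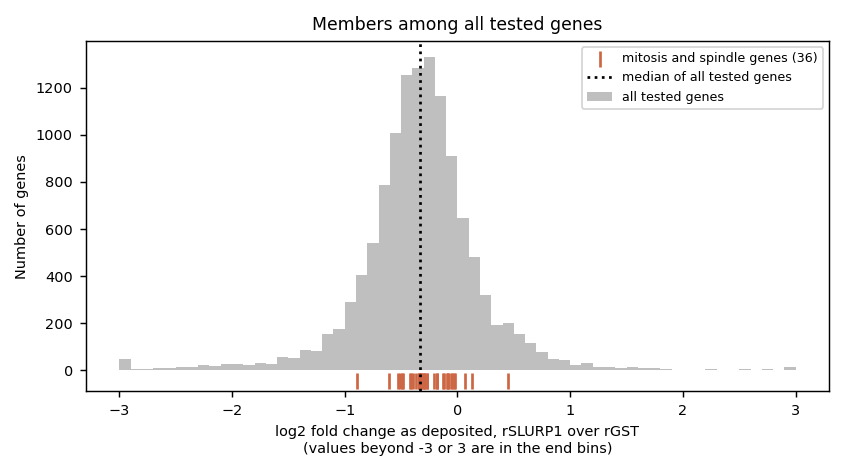
Number of tested genes (vertical axis) by log2 fold change as deposited (horizontal axis, bins of 0.1), with each of the 36 members as a tick under the bars. The ticks gather around the dotted median of all tested genes, and Mki67 at -0.89 and Ube2c at 0.45 lie farthest out on either side.

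The libraries did not overlap, with every rSLURP1 library below every rGST library, for 21 members as deposited (58.3%), beside 61.7% of tested genes. The reverse order held for 1 member, Ube2c, beside 9.75%. With median-ratio scaling 2 members, Mki67 and Ccna2, were separate with rSLURP1 lower, beside 30.0% of tested genes, and 10 with rSLURP1 higher, beside 30.2%. For a single gene, exact two-sided permutation of 3 and 3 libraries reaches no p below 0.1. The summed TPM of the 36 genes was 939, 1037 and 931 in rGST libraries 1 to 3 and 859, 814 and 827 in rSLURP1 libraries 1 to 3, so the groups were separate as deposited. After median-ratio scaling the sums were 820 to 914 with rGST and 894 to 983 with rSLURP1, and the groups overlapped. In each group 1 library stood apart for these genes. Replicate 2 was the highest of the 3 rGST libraries for 27 of the 36 members, beside 33.3% of all tested genes, and replicate 1 was the highest of the 3 rSLURP1 libraries for 19, beside 23.0%. Without rGST replicate 2, 14 members were called lower as deposited and the median was -0.23, and without rSLURP1 replicate 1 these were 16 and -0.25. Over all tested genes the same runs gave 53.85% and 53.94% lower, with medians of -0.32 and -0.31. Why these libraries stood apart was not tested.

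Markers of cell types were checked in the same libraries. Of 5 epithelial markers, Krt18 was at 196 TPM with rGST and 198 with rSLURP1 (not called as deposited, higher with median-ratio scaling), Krt8 was at 1.56 and 0.697 TPM (lower as deposited, not called with median-ratio scaling), Epcam was listed at 0 in all 6 libraries, and Cdh1 and Krt19 were at or near 0. Of 4 mesenchymal markers, Vim was at 1259 TPM with rGST and 665 with rSLURP1 and was lower in both scalings. S100a4 was at 1495 and 1443 TPM (not called as deposited, higher with median-ratio scaling), Zeb1 was at 10.9 and 7.11 TPM (lower as deposited, not called with median-ratio scaling), and Cdh2 was at or near 0. Of 5 leukocyte markers, Cd68 was at 3.77 and 9.60 TPM (higher in both scalings) and the others, Ptprc included, at or near 0. The 4 endothelial markers summed to 0.31 TPM or less in every library. Of 7 fibroblast markers, the 4 that were tested (Dcn, Lum, Pdgfra and Col1a1) were all lower with rSLURP1 in both scalings. Col3a1, Thy1 and Fap were at or near 0 in both groups, with group means of 0.437 TPM or less. The summed TPM of that list was 894 to 1032 with rGST and 57.3 to 64.2 with rSLURP1, and its part in the changes of the mitotic genes was not tested.

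Promoters show what the members share beyond their names. RefSeq promoters (GRCm38.p6, 250 bases before to 50 after the start, 1 start per gene) matched 29 of the 36 members. Ccna2, Foxm1, Cdc25c, Tpx2, Aurkb, Incenp and Kif20a were not matched. Both strands were searched for the CHR as TTTGAA or TTCGAA and for the CCAAT box as CCAAT. A CHR sequence was found in 23 of the 29 (79.3%), against 13.2% of the 8367 tested genes with a promoter and 19.4% of all 27025 promoters. At least 1 CCAAT box was found in 75.9%, against 39.7% of tested genes and 37.9% of all promoters, and at least 2 in 51.7%, against 15.6% and 12.2%. Both motifs stood together in 69.0%, against 5.86% of tested genes and 7.70% of all promoters, and in no member did they share bases. Of the 100 other mitotic genes described further on, 83 promoters were matched, of which 44.6% held a CHR sequence, 51.8% a CCAAT box and 28.9% both. For 39 DNA replication genes, an earlier step of the cycle, 31 promoters were matched, of which 19.4% held a CHR sequence, 61.3% a CCAAT box and 16.1% both. The letters alone do not show that a factor binds there. Stretches of 150 bases are printed for both genes called in the 2 scalings (Mki67 and Ube2c), for Cdc20, the partner of Ube2c at the APC/C, and for Ccnb1, a mitotic cyclin with no CHR letters in the window. Capitals mark the CHR and CCAAT letters on either strand (TTCAAA and ATTGG are the reverse-strand forms), and positions count back from -1, the base before the RefSeq start. The printed stretches run from -150 to -1 in Mki67 and Cdc20, from -156 to -7 in Ube2c and from -209 to -60 in Ccnb1.
Mki67, chr7:135716380-135716529, minus strand: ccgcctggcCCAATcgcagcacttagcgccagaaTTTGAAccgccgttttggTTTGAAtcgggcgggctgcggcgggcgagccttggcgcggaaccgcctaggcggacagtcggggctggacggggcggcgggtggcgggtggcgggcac
Ube2c, chr2:164769773-164769922, plus strand: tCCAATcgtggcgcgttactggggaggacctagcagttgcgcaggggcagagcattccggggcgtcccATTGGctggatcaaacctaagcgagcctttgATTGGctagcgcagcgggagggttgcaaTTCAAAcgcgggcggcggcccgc
Cdc20, chr4:118437344-118437493, minus strand: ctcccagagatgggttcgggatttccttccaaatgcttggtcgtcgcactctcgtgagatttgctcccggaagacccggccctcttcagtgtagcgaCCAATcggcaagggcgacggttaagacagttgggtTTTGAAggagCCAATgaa
Ccnb1, chr13:100786546-100786695, minus strand: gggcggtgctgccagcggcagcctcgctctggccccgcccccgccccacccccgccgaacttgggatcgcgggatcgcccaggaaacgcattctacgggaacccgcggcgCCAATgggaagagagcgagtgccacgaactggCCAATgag

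In Mki67 the CHR letters began at -116 and -98, in Ube2c at -29 and in Cdc20 at -18. The 23 members with a CHR sequence had log2 fold changes from -0.89 to 0.45 (median -0.27) as deposited, so genes that share the element lay at both ends of the range. The 6 without one in this window (Birc5, Ccnb1, Cenpe, Mad2l1, Nuf2 and Pttg1) ran from -0.53 to 0.07 (median -0.38).

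**Figure D3:**
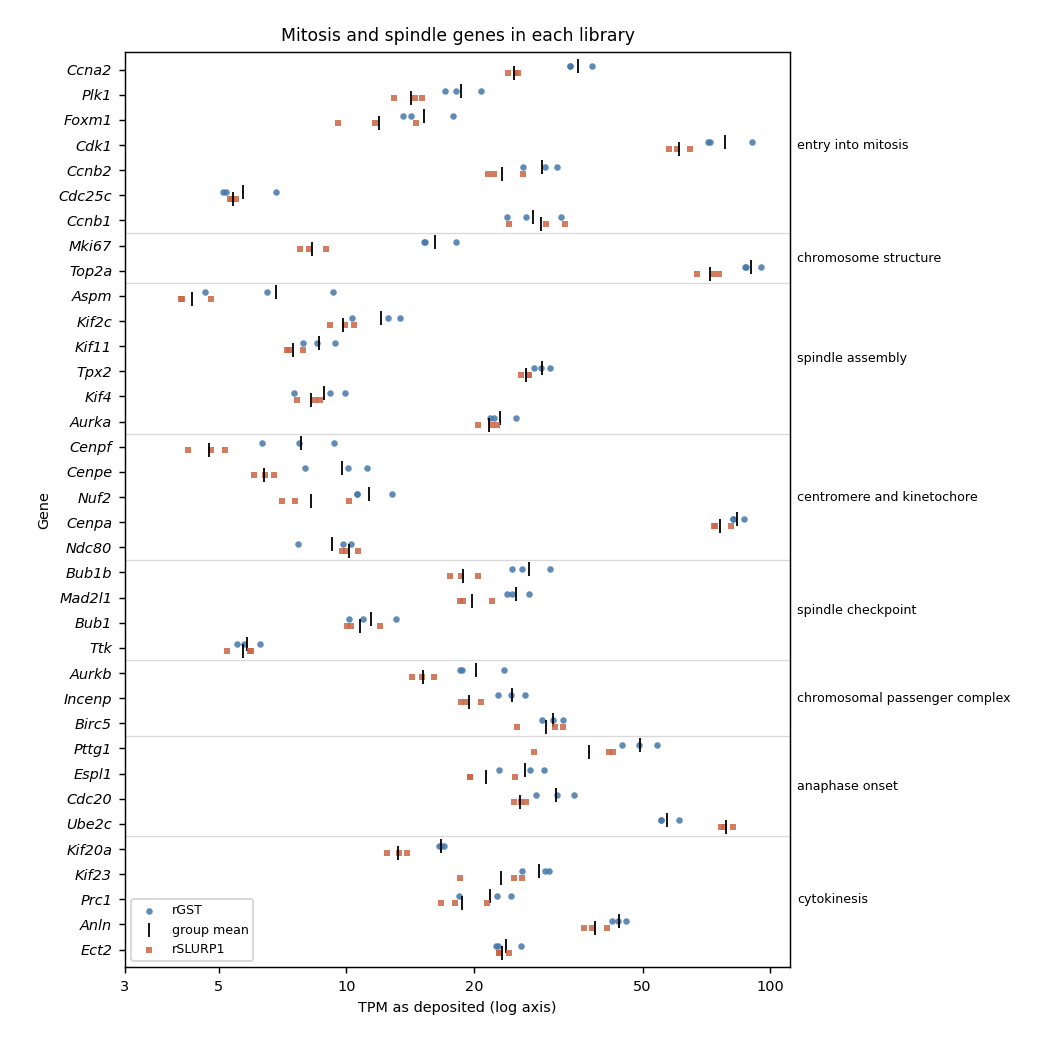
TPM as deposited (log axis) of the 36 genes in each of the 6 libraries, grouped by role, with rGST as circles, rSLURP1 as squares and the group means as bars. Mki67 shows the widest gap between the groups and Ube2c is the 1 gene with every rSLURP1 library above every rGST library, whereas Ccnb1, Ndc80, Ect2, Birc5 and Ttk overlap.

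Of the 7 genes of entry into mitosis, 4 were lower as deposited and 1 was higher with median-ratio scaling. Ccna2, which encodes cyclin A2, had TPM values of 33.8, 37.9 and 33.7 in rGST libraries 1 to 3 and 24.1, 25.4 and 25.1 in rSLURP1 libraries 1 to 3. All rSLURP1 values lay below all rGST values, and Ccna2 stood at -0.48 on the log2 scale (SE 0.064, limma adjusted p = 4.05e-04), or -0.14 with median-ratio scaling (adjusted p = 0.0920). Plk1, the Polo-like kinase that promotes entry and spindle assembly, was at 17.10, 20.78 and 18.09 TPM with rGST and 15.04, 12.96 and 14.52 with rSLURP1. These groups did not overlap, and the log2 fold change of -0.37 (adjusted p = 0.00882) was close to the median of all genes. Cdk1 itself (-0.34) and the cyclin gene Ccnb2 (-0.30) were also called lower as deposited and stood at 0.01 and 0.04 with median-ratio scaling. Ccnb1, the gene of the main mitotic cyclin, did not follow them. Its TPM values were 24.0, 32.1 and 26.5 with rGST and 29.6, 24.3 and 32.7 with rSLURP1, and these overlapped. The log2 fold change of Ccnb1 was 0.07 as deposited (adjusted p = 0.681) and 0.41 with median-ratio scaling (adjusted p = 0.0468). With that scaling too the libraries of Ccnb1 overlapped, at 21.21 to 28.27 with rGST and 26.65 to 37.31 with rSLURP1. Foxm1, the transcription factor of the late cell cycle (-0.34), and Cdc25c (-0.06) were called in neither scaling.

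Both genes of chromosome structure were lower as deposited. Mki67 (ENSMUSG00000031004.8; GRCm38 chromosome 7, 135689784 to 135716361, minus strand), which encodes the Ki-67 protein that coats mitotic chromosomes and is a widely used proliferation marker, had the largest decrease of the 36. It was at 15.3, 18.1 and 15.3 TPM in rGST libraries 1 to 3 and at 8.18, 7.79 and 8.95 in rSLURP1 libraries 1 to 3. Its mean fell from 16.2 ± 1.62 to 8.31 ± 0.590 TPM (SD, n = 3 libraries each), which is 51.2% of the rGST level. The log2 fold change was -0.89 as deposited (standard error 0.094, adjusted p = 1.29e-04) and -0.56 with median-ratio scaling (adjusted p = 0.00245). Top2a, the topoisomerase that untangles sister chromatids, was the most abundant member in the rGST libraries. Its values were 87.6, 95.3 and 87.2 TPM with rGST and 73.2, 75.6 and 67.3 with rSLURP1, a log2 fold change of -0.32 (adjusted p = 0.00221) that became 0.03 with median-ratio scaling.

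None of the 6 genes of spindle assembly was called as deposited, and Aurka and Tpx2 were higher with median-ratio scaling. Aspm, which focuses spindle poles, was at 6.49, 4.63 and 9.31 TPM with rGST and 4.78, 4.08 and 4.09 with rSLURP1. The rGST values of Aspm spread over a 2-fold range and the groups overlapped (log2 fold change -0.51, adjusted p = 0.0600). Kif2c, a kinesin that depolymerises microtubules at centromeres, was at 12.6, 13.4 and 10.3 TPM with rGST and 9.91, 10.4 and 9.14 with rSLURP1 (-0.27, adjusted p = 0.0588). Aurka, the spindle pole kinase, and Tpx2, which activates it, had log2 fold changes of -0.08 and -0.12 as deposited and 0.26 and 0.22 with median-ratio scaling (adjusted p = 0.0290 and 0.0101). The kinesin genes Kif11 and Kif4 were at -0.18 and -0.09 as deposited and were called in neither scaling.

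Of the 5 centromere and kinetochore genes, 3 were lower as deposited and 2 were higher with median-ratio scaling. Cenpf and Cenpe, both of which encode very large proteins of the outer kinetochore, were lower as deposited. Cenpf was at 9.33, 7.75 and 6.33 TPM with rGST and 5.18, 4.24 and 4.80 with rSLURP1 (-0.61 on the log2 scale, SE 0.142, adjusted p = 0.00652). Cenpe was at 10.1, 11.2 and 7.99 TPM with rGST and 6.76, 6.04 and 6.41 with rSLURP1 (-0.53, adjusted p = 0.00662). Neither gene overlapped between the groups as deposited. With median-ratio scaling Cenpf was at -0.30 and Cenpe at -0.22 (adjusted p = 0.124 and 0.195). Nuf2 and Ndc80, whose products pair in the complex that grips microtubules, lay apart. Nuf2 was lower as deposited (-0.42, adjusted p = 0.0291). Ndc80 was at 10.2, 9.82 and 7.69 TPM with rGST and 9.97, 10.6 and 9.79 with rSLURP1. These values of Ndc80 overlapped, with a log2 fold change of 0.13 as deposited (adjusted p = 0.340) and 0.45 with median-ratio scaling (adjusted p = 0.0113). Cenpa, the centromeric histone H3 variant, was at -0.13 as deposited (adjusted p = 0.0584) and 0.22 with median-ratio scaling (adjusted p = 0.0151).

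Of the 4 checkpoint genes 2 were lower as deposited, as were 2 of the 3 passenger complex genes, and 1 of each was higher with median-ratio scaling. Bub1b, which encodes the checkpoint protein BUBR1, was at 24.6, 30.3 and 25.9 TPM with rGST and 20.5, 17.5 and 18.6 with rSLURP1 (log2 fold change -0.49, adjusted p = 0.00252). Mad2l1, the gene of the checkpoint inhibitor MAD2, was at 23.9, 27.0 and 24.6 TPM with rGST and 22.0, 18.9 and 18.5 with rSLURP1 (-0.34, adjusted p = 0.00916). Both were separate between the groups as deposited, and neither was called with median-ratio scaling. The kinase genes Bub1 and Ttk were at -0.08 and -0.03 as deposited, and Ttk was at 0.27 with median-ratio scaling (adjusted p = 0.0449). In the chromosomal passenger complex, the kinase gene Aurkb was at 18.7, 23.5 and 18.5 TPM with rGST and 15.1, 16.1 and 14.3 with rSLURP1 (-0.39, adjusted p = 0.0111). Incenp, the scaffold of the complex, was at 24.4, 26.4 and 22.8 TPM with rGST and 20.7, 19.1 and 18.7 with rSLURP1 (-0.32, adjusted p = 0.00663). Aurkb and Incenp were both separate between the groups. Birc5, which encodes survivin, did not follow these partners, with -0.05 as deposited (adjusted p = 0.639) and 0.29 with median-ratio scaling (adjusted p = 0.0373).

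Of the 4 genes of anaphase onset, 1 was lower and 1 higher as deposited. Ube2c (ENSMUSG00000001403.13; GRCm38 chromosome 2, 164769898 to 164778822, plus strand), the E2 enzyme that starts ubiquitin chains for the APC/C, was the 1 member called higher as deposited. Its TPM values were 55.4, 60.9 and 55.3 with rGST and 81.5, 77.8 and 76.6 with rSLURP1, with every rSLURP1 library above every rGST library. The mean rose from 57.2 ± 3.20 to 78.6 ± 2.56 TPM (SD, n = 3 libraries each), 137% of the rGST level. Its log2 fold change was 0.45 as deposited (standard error 0.054, adjusted p = 2.29e-04) and 0.80 with median-ratio scaling (adjusted p = 2.55e-05). Cdc20, the APC/C activator, was lower as deposited (-0.27, adjusted p = 0.0202) and stood at 0.08 with median-ratio scaling. Pttg1, the gene of securin, was at 48.9, 54.2 and 44.7 TPM with rGST and 42.5, 27.8 and 41.7 with rSLURP1, with library 2 well below the other rSLURP1 libraries. The log2 fold change of Pttg1 was -0.41 (adjusted p = 0.0511), and that of Espl1, the gene of separase, was -0.30 (adjusted p = 0.0601).

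Of the 5 cytokinesis genes, 2 were lower as deposited and 1 was higher with median-ratio scaling. Kif20a, a kinesin of the spindle midzone, was at 16.6, 16.7 and 17.0 TPM with rGST and 13.9, 12.4 and 13.3 with rSLURP1 (log2 fold change -0.32, adjusted p = 0.00393). Kif23, a subunit of centralspindlin, was at 29.4, 30.1 and 26.0 TPM with rGST and 26.0, 18.6 and 24.8 with rSLURP1 (-0.30, adjusted p = 0.0661). The groups were separate for both, though barely so in Kif23. Anln, the gene of the contractile ring scaffold anillin, was also lower as deposited (-0.18, adjusted p = 0.0285), and Prc1, which bundles midzone microtubules, was at -0.21 (adjusted p = 0.172). Ect2, the exchange factor that activates RHOA at the division plane, was at 25.9, 22.6 and 22.8 TPM with rGST and 22.9, 24.2 and 22.9 with rSLURP1. The 2 groups of Ect2 overlapped fully as deposited (-0.02, adjusted p = 0.779), and Ect2 stood at 0.32 with median-ratio scaling (limma adjusted p = 0.00569).

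Ratios of 2 members within a library do not depend on how libraries are scaled. Known partners, and Top2a and Ube2c against Mki67, were compared in this way, with pairs chosen after the values were seen and therefore described with no test. The ratio of Ube2c to Mki67 was 3.62, 3.37 and 3.62 in rGST libraries 1 to 3 and 9.96, 9.99 and 8.56 in rSLURP1 libraries 1 to 3. The ratio of Top2a to Mki67 was 5.57 ± 0.262 with rGST and 8.72 ± 1.11 with rSLURP1 (SD, n = 3 libraries each). The ratio of Ube2c to Cdc20 was 1.84 ± 0.124 and 3.06 ± 0.194. In each of these 3 pairs the groups were separate. Each pair holds Ube2c or Mki67, the members with the highest and lowest log2 fold changes, so the choice itself favored separation. Some pairs of known partners were also separate between the groups, with no share over other gene pairs to read this against. Ndc80 to Nuf2 went from 0.820 ± 0.129 to 1.25 ± 0.180, Ccnb1 to Cdk1 from 0.353 ± 0.0186 to 0.475 ± 0.0834, and Birc5 to Aurkb from 1.53 ± 0.141 to 1.95 ± 0.192. The checkpoint genes Bub1 and Bub1b had a ratio of 0.423 ± 0.00980 with rGST and 0.569 ± 0.0264 with rSLURP1. Ratios of Tpx2 to Aurka, Incenp to Aurkb, Ccnb2 to Cdk1, Ccna2 to Cdk1, Pttg1 to Espl1 and Kif4 to Prc1 overlapped between the groups.

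**Figure D4:**
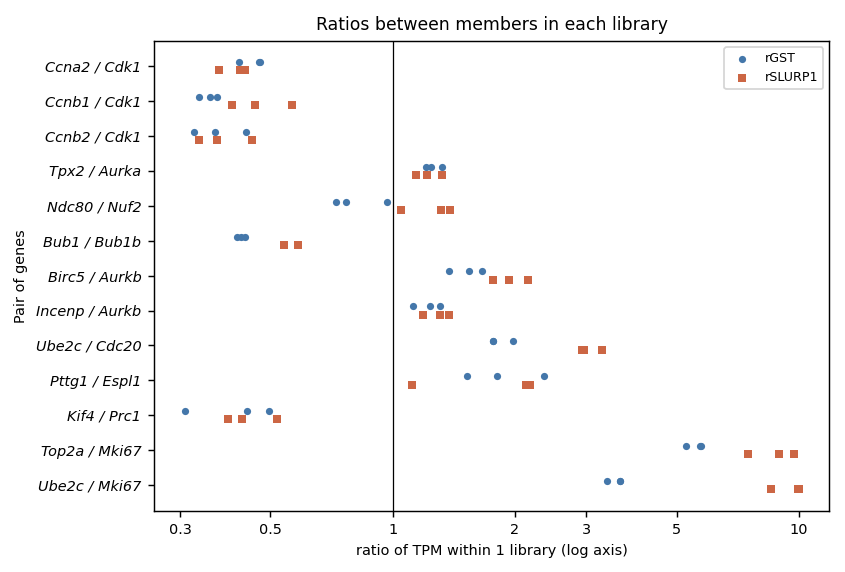
Ratio of the TPM of 2 members within each library (log axis) for 13 pairs, with rGST as circles and rSLURP1 as squares. The ratio of Ube2c to Mki67 lies between 3.37 and 3.62 with rGST and between 8.56 and 9.99 with rSLURP1, whereas pairs such as Tpx2 and Aurka overlap.

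Transcript length moved with the change. The 4 members with the longest annotated transcripts, Cenpf (11130 bases), Mki67 (10061), Aspm (9867) and Cenpe (7910), also had the 4 lowest log2 fold changes as deposited. Over genes, Spearman's rho between the longest transcript and the log2 fold change was -0.35 over the 36 members and -0.25 over the 12293 tested genes with a length, across genes that are not independent replicates and share the same 6 libraries. After a length trend was removed from each library, Mki67 remained lower at -0.42 (standard error 0.094, adjusted p = 0.00843), while Cenpf, Aspm and Cenpe were at -0.14, -0.05 and -0.07 (adjusted p = 0.433, 0.864 and 0.648). Ube2c, with 2191 bases, was at 0.78 after the correction (adjusted p = 3.27e-05). The correction also moved the median of all tested genes from -0.33 to 0.03, so these values are not comparable with those as deposited. Median-ratio scaling, which centers the table without using length, put Mki67 at -0.56, Cenpf at -0.30, and Aspm and Cenpe at -0.22. Ube2c was at 0.80 with that scaling. With the length correction 1 member was lower and 11 were higher, beside 22.0% and 27.2% of tested genes. The longest annotated transcript need not be the one expressed, and the part of length in these changes was not tested otherwise.

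**Figure D5:**
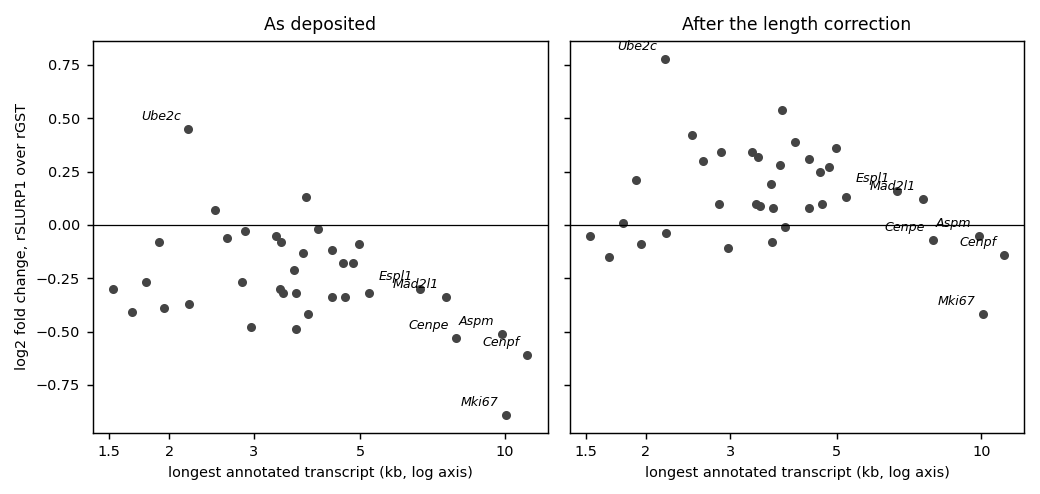
Log2 fold change of the 36 members (vertical axis) against the length of the longest annotated transcript in kb (log axis), as deposited on the left and after the length correction on the right. Cenpf, Mki67, Aspm and Cenpe lie lowest at the long end on the left, and after the correction Mki67 at -0.42 stays below the others while Ube2c lies highest at 0.78. The correction also moves the median of all tested genes from -0.33 to 0.03, which shifts the right panel upward.

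Some members overlap other genes. Exosc9 overlaps Ccna2, Pdzd11 overlaps Kif4, Elovl1 overlaps Cdc20 and Cdc23 overlaps Kif20a, each on the opposite strand and each reaching 44.1 to 58.2 TPM. No source used here states that strand was used in counting, so reads in the shared stretches are uncertain. Named pseudogenes of Ccnb1, Ccnb2 and Kif4 were at 0.35 TPM or less in every library.

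Other genes of the pathway, taken from lists written with earlier results of these data known, are given here by counts and medians. Of 100 further mitotic genes, all tested, 61 were lower and 5 higher as deposited, with a median of -0.30, and 16 were lower and 18 higher with median-ratio scaling. Over all tested genes, the shares against which these and the following counts are to be read were 58.5% lower and 8.66% higher as deposited, and 25.2% and 26.0% with median-ratio scaling. All 13 condensin and cohesin subunits, which shape and hold chromosomes, were lower as deposited (median -0.49), and 5 were lower and none higher with median-ratio scaling, where the log2 fold changes of the list ran from -0.52 to 0.13. Ncapd3 fell from 13.7 ± 1.15 to 7.15 ± 0.365 TPM, Smc4 from 97.9 ± 6.52 to 61.6 ± 1.43 and Smc3 from 54.7 ± 2.28 to 37.2 ± 1.37 (SD, n = 3 libraries each). These 3 genes were lower in both scalings.

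Of 18 other kinetochore and checkpoint genes, 7 were lower and 2 higher as deposited, and 2 were lower and 4 higher with median-ratio scaling. Knstrn, which encodes a kinetochore and spindle protein, rose from 42.9 ± 1.21 to 61.3 ± 1.74 TPM and Sgo2a, a shugoshin that guards centromeric cohesion, from 11.9 ± 0.102 to 14.6 ± 0.616 (SD, n = 3 libraries each). In the same list Pmf1 fell from 50.0 ± 2.68 to 30.7 ± 0.306 TPM (log2 fold change -0.69), and Zw10 had -0.57. Sgo1, the other shugoshin gene, was at 0.29 as deposited (adjusted p = 0.119) and 0.59 with median-ratio scaling (adjusted p = 0.0101). Of 29 other spindle and cytokinesis genes, 15 were lower and 1 higher as deposited, and 1 was lower and 6 higher with median-ratio scaling. Numa1, which anchors spindle poles, fell from 98.6 ± 1.64 to 55.7 ± 3.09 TPM, and Ckap2l, a spindle protein, rose from 12.4 ± 0.670 to 20.3 ± 0.535 (SD, n = 3 libraries each), both in both scalings. Kif18b and Nusap1 were higher with median-ratio scaling, at 0.42 and 0.37.

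Among 17 APC/C subunits and partners, 12 were lower and 1 higher as deposited, and 4 were lower and 4 higher with median-ratio scaling. Cdc23, Anapc7 and Anapc2 had log2 fold changes of -0.87, -0.68 and -0.55 and were lower in both scalings. Anapc16 had 0.55 and was higher in both, and Ube2s and Cdc27 were higher with median-ratio scaling, at 0.31 and 0.25. Of 12 subunits of the DREAM and MuvB-MYBL2 complexes, which bind CHR promoters to silence or activate them, 8 were lower and none higher as deposited. With median-ratio scaling 2 of them were lower and 1 was higher. Rbl2, the gene of the pocket protein p130, which represses the cell cycle in resting cells, fell from 30.7 ± 1.40 to 14.7 ± 0.424 TPM (SD, n = 3 libraries each; log2 fold change -1.01, adjusted p = 9.85e-06). Its relative Rbl1 had -0.57, and both were lower in both scalings, whereas Tfdp1, the partner of E2F factors, was at 0.00 as deposited and 0.35 with median-ratio scaling.

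Of 11 regulators of mitotic entry, 6 were lower and 1 higher as deposited, and 2 were lower and 3 higher with median-ratio scaling. Gadd45a, a stress-induced inhibitor of CDK1, fell from 432.7 ± 4.75 to 106.6 ± 6.51 TPM (SD, n = 3 libraries each; log2 fold change -2.01, adjusted p = 2.30e-07). Cdkn1a, the gene of the CDK inhibitor p21, rose from 4.53 ± 1.49 to 11.3 ± 1.61 TPM (SD, n = 3 libraries each; 1.19, adjusted p = 0.00174). Both kept their direction with median-ratio scaling, at -1.66 and 1.49. Ensa, an inhibitor of the phosphatase PP2A-B55, was lower in both scalings (-0.65), and its kinase Mastl was at 0.33 as deposited (adjusted p = 0.101) and 0.62 with median-ratio scaling (adjusted p = 0.0129). Arpp19, a relative of Ensa, was at 0.40 with median-ratio scaling.

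For comparison with an earlier step of the cycle, 24 of 39 DNA replication genes were lower and 2 higher as deposited, with a median of -0.29, and 5 were lower and 9 higher with median-ratio scaling, with a median of 0.03. Rrm1, a subunit of ribonucleotide reductase, fell from 53.2 ± 5.03 to 26.9 ± 0.815 TPM (SD, n = 3 libraries each; log2 fold change -0.96), and Pole and Mcm4 had -0.78 and -0.75. Cdt1 and Rfc4 had 0.29 and 0.25 and were higher in both scalings, and Orc1 was higher with median-ratio scaling, at 0.49. The medians of the 36 mitosis and spindle genes were -0.30 and 0.04, and the difference between the lists was not tested.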

How the data were processed

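RNAseq of 6 libraries of D2A1 spheroids, 3 with rGST and 3 with rSLURP1, was grouped by the sample titles. Per the submitters' processing notes, the authors used Cutadapt 1.18 for trimming, STAR 2.5.2b for alignment (build mm10) and RSEM 1.3.3 for gene quantification. They deposited TPM, 1 column per library, with no pooling. Read depth cannot be had from TPM, so counting error is unknown and precision rests on 3 libraries per group.

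From the deposited TPM, log2(TPM + 1) was tested with limma 3.58.1 in R 4.3.3 (lmFit, eBayes with trend), rSLURP1 against rGST, for the 12301 genes that reached 1 TPM in 3 or more libraries. P-values were adjusted over all of these by Benjamini-Hochberg, with a threshold of 0.05. With the pseudocount of 1, fold changes of low genes are understated. Coordinates and lengths came from GENCODE M21 (GRCm38), matched for 54079 identifiers. The length correction removed a loess trend (span 0.3) of each library's deviations on log2 length. The script was checked on simulated data. Figures were drawn with matplotlib 3.10.9.

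The 36 members and all lists were chosen with earlier results of these data known. All 36 are named. TPM per library is given for members called the same way in both scalings and for the 2 with the largest change in each role, and additionally, after the values were seen, for Ccnb1, Ndc80 and Ect2. Of the other lists, up to 3 genes per direction are named, those with the largest change among genes called with median-ratio scaling. Alternatives were another pseudocount, other filters and scalings, no trend, a replicate block and each library left out. Deviations of same-numbered libraries correlated at -0.056, -0.034 and -0.061 across genes, beside a mean of 0.025 for other numbers. Pairing by replicate number was therefore not seen in the values, which cannot exclude that same-numbered libraries shared a culture or batch.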

Additional observations from a re-analysis of the deposited data

How the results depend on the processing

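Ube2c was called higher and Mki67 lower in every alternative run, with log2 fold changes from 0.43 to 0.80 and from -0.95 to -0.42. The counts of members lower and higher as deposited (16 and 1) became 1 and 9 with median-ratio scaling, 1 and 9 with quantile normalization (23.6% and 25.3% of tested genes) and 1 and 11 with the length correction (22.0% and 27.2%). Leaving out 1 library gave 14 to 16 lower, 1 higher and medians from -0.30 to -0.23 as deposited. Of all tested genes, 53.7% to 56.9% were then lower and 7.37% to 8.29% higher. With median-ratio scaling these runs gave 1 to 3 members lower and 5 to 8 higher, beside 21.1% to 23.2% and 22.8% to 24.2% of tested genes. Cenpe and Cenpf joined Mki67 without rGST replicate 3, and the higher count was 5 without rGST replicate 1, rGST replicate 3 or rSLURP1 replicate 1. The replicate block gave 16 lower and 1 higher (56.5% and 8.19% of tested genes). With it Kif2c and Prc1 were called (adjusted p = 0.0360 and 0.0458, limma) and Ccnb2 and Anln were not (0.0585 and 0.0637). The block gave 1 and 5 with median-ratio scaling (23.2% and 24.5% of tested genes) and 1 and 8 with the length correction (20.3% and 25.4%). Of the 16 lower as deposited, 4 missed the threshold in limma without single libraries: Ccnb2 (adjusted p up to 0.0784, without rGST 1 or 2 or rSLURP1 1 or 2), Nuf2 (up to 0.0940, without rGST 2 or rSLURP1 1 or 3), Cdc20 (up to 0.0618, without rGST 2 or 3 or rSLURP1 1) and Anln (up to 0.0937, without rGST 2 or 3 or rSLURP1 2 or 3). No filter gave 14 lower, beside 29.5% of 23334 genes, with medians of -0.30 for the members and -0.10 for all. The members' place relative to the table thus depended on which genes were tested. The median of the members was also -0.30 with the filter. The run without it added genes of low TPM, whose fold changes the pseudocount of 1 understates. A filter in all 6 libraries gave 19 lower, beside 61.3% of 11199 genes, with medians of -0.30 and -0.32. The counts called in either direction in the other lists became 7 (spindle and cytokinesis), 5 (condensin and cohesin), 8 (APC/C), 3 (DREAM) and 14 (DNA replication) with median-ratio scaling.

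The median of the 36 members turned positive: 0.04 with median-ratio scaling, 0.09 after quantile normalization and 0.11 with the length correction. Since these settings move the median gene to about 0 by construction, members near -0.33 cross 0. With median-ratio scaling, with or without the block, the log2 fold changes that crossed were Ccnb2 0.04, Cdk1 0.01, Cdc25c 0.24, Top2a 0.03, Aurka 0.26, Tpx2 0.22, Kif11 0.14, Kif2c 0.06, Kif4 0.23, Cenpa 0.22, Bub1 0.25, Ttk 0.27, Mad2l1 0.0041, Birc5 0.29, Incenp 0.02, Cdc20 0.08, Espl1 0.04, Kif20a 0.01, Kif23 0.04, Prc1 0.13, Anln 0.16 and Ect2 0.32. With quantile normalization they were Foxm1 0.07, Ccnb2 0.08, Cdc25c 0.34, Plk1 0.03, Aurka 0.30, Tpx2 0.25, Kif11 0.22, Kif2c 0.13, Kif4 0.31, Cenpa 0.14, Bub1 0.32, Ttk 0.37, Mad2l1 0.06, Aurkb 0.01, Birc5 0.32, Incenp 0.07, Cdc20 0.11, Espl1 0.09, Kif20a 0.08, Kif23 0.07, Prc1 0.18, Anln 0.16 and Ect2 0.36. With the length correction, with or without the block, they were Foxm1 0.10, Cdk1 0.08, Cdc25c 0.30, Top2a 0.13, Aurka 0.21, Tpx2 0.31, Kif11 0.27, Kif2c 0.10, Kif4 0.36, Cenpa 0.28, Bub1 0.32, Ttk 0.34, Mad2l1 0.12, Birc5 0.34, Incenp 0.09, Cdc20 0.01, Espl1 0.16, Kif20a 0.08, Kif23 0.10, Prc1 0.19, Anln 0.25 and Ect2 0.39. Ect2 was at 0.0021 without mitochondrial genes. With 1 library left out, values near 0 crossed it: Ccnb1 ran from -0.03 to 0.18, Cdc25c from -0.12 to 0.06, Bub1 from -0.15 to 0.02, Ttk from -0.06 to 0.02, Birc5 from -0.12 to 0.05 and Ect2 from -0.06 to 0.04. Since TPM carries no counts, what depth limits for members of low TPM such as Aspm and Ttk could not be assessed.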
